A study of Rattus norvegicus with 138 samples.

Results

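The 9 genes described here are the complement components C1qa, C1qb, C1qc, C1r, C1s, C2 and C3 and the complement inhibitors Serping1 and Cd59. They were chosen by symbol, and all 9 were found once in each of 3 count tables of 32883 genes, of which each table covers 1 brainstem region. The regions are the nucleus of the solitary tract (NTS), where blood pressure afferents end, and the caudal and rostral ventrolateral medulla (CVLM and RVLM), which hold neurons that inhibit and drive sympathetic outflow. Bilateral tissue punches were taken from 46 female rats, of which 28 were of a spontaneously hypertensive strain (SHR/NHsd) and 18 of the normotensive Wistar Kyoto strain (WKY/NHsd), and the punches of both sides of a rat were 1 sample. There were 5 WKY rats and 5 SHR aged 8 wk, 4 and 5 aged 10 wk, and 3 and 6 at each of the older ages, which were 12, 16 and 24 wk. The groups differ in strain and age alone as labelled, with no treatment named, and all rats were female and housed alone. A strain difference goes with every genetic difference between these inbred strains. The question behind the comparison was which genes differ in the brainstem while hypertension develops in the SHR. Each rat gave 1 library per region, and libraries with the same strain, age and replicate number were taken as 1 rat.

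Complement is a set of secreted and membrane proteins that tag and attack targets. In the classical pathway C1q binds a target and the proteases C1r and C1s, which are attached to it, cleave C4 and C2, and the C3 convertase that forms from the pieces cleaves C3. Serping1 encodes C1 inhibitor, which inactivates C1r and C1s, and Cd59 encodes a membrane protein that blocks the last step, the membrane attack complex. In the brain, C1q is made mostly by microglia, C3 by microglia and reactive astrocytes, and C1q and C3 are known for tagging synapses for removal. In whole punches, fewer cells of a type and less RNA per cell cannot be told apart.

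Total counts per library ran from 5904570 to 17889406, and values below are CPM, counts per 1000000 on TMM-normalized library sizes. Noradrenergic and adrenergic genes were read beside the tissue labels. Dbh, which makes noradrenaline, had medians of 73.5, 82.3 and 9.0 CPM in the order NTS, CVLM and RVLM. Those of Pnmt, which makes adrenaline, were 3.91, 40.7 and 18.5 CPM. Both were lower in the RVLM than in the CVLM. A sum of 6 region markers that holds both ran in the RVLM from 15.5 to 153 CPM in WKY rats and from 38.6 to 267 CPM in the SHR. These values do not establish where each punch lay. In 5 NTS libraries of WKY rats the choroid plexus gene Ttr exceeded 50 CPM (92.8 to 4596 CPM), with 3 of 6 tested choroid plexus genes lower in the SHR in the NTS. The fit of the NTS alone was also run without these libraries, while the comparisons between regions hold them. In the CVLM the summed level of choroid plexus genes reached 195 CPM in WKY rats and 9.59 CPM in the SHR. No CVLM library was left out for this. The names of the libraries close with a 1 or a 2. All libraries of 10 wk carry the 2, and so do those of 3 WKY rats aged 8 wk, 1 SHR aged 12 wk and 1 SHR aged 24 wk. Comparisons of 10 wk with the other ages are thus for most rats also comparisons between these numbers. No SHR aged 8 wk carries the 2, so the strain comparison at 8 wk is in part also one between these numbers. In 2 CVLM libraries the title gives 8 wk and the age label 10 wk, the title was followed, and without them 5 members passed over the ages in the CVLM, as with them.

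The strain difference of the 9 genes was first taken as the mean over the 5 ages, as a log2 ratio of SHR to WKY rats in edgeR's quasi-likelihood fit, with a gene passing at an adjusted p below 0.05. C1r and C1s were lower in the SHR in the NTS and CVLM, C2 and C3 were higher in the SHR in all 3 regions, and Serping1 was higher in the CVLM and RVLM. In the NTS 4 of 9 members passed, where 11.2% of the 13793 genes tested did. In the CVLM 5 of 9 passed, where 12.3% of 13408 genes did, and in the RVLM 3 of 9, where 10.8% of 13411 did. The median log2 difference of the 9 genes was -0.07, -0.02 and 0.00 in the NTS, CVLM and RVLM, beside 0.01, -0.00 and 0.01 over all genes tested. C1qa, C1qb, C1qc and Cd59 passed in no region. Within the 32 libraries per region whose name ends in 1, which hold no rat aged 10 wk, 3, 3 and 2 members passed: C1r (log2 -0.79 and -0.66), C1s (-1.01 and -0.59) and C2 (0.42 and 0.73) in the NTS and CVLM, and C2 (0.89) and Serping1 (0.97) in the RVLM. The shares of all genes that passed within these libraries are not given here, so these counts have no share to be read against. At 1 or more single ages 4 of 9 members passed in the NTS, where 10.2% of genes did, 3 of 9 in the CVLM (13.8%) and 3 of 9 in the RVLM (10.9%). These members made 11, 10 and 4 passes among the 45 tests of a member at an age, where 3.5%, 4.57% and 3.53% of the tests of any gene at an age passed. The test of whether the strain difference changed with age was passed by 0 members in edgeR in any region and by 0 with DESeq2, where 2, 3 and 1 of all genes passed in the NTS, CVLM and RVLM (0.0145%, 0.0224% and 0.00746%). At an unadjusted p below 0.05 this test gave 3 members in the NTS, which were C1r, C1s and Serping1, and 0 in the CVLM and RVLM, beside 1677, 1612 and 762 of all genes.

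**Figure D1:**
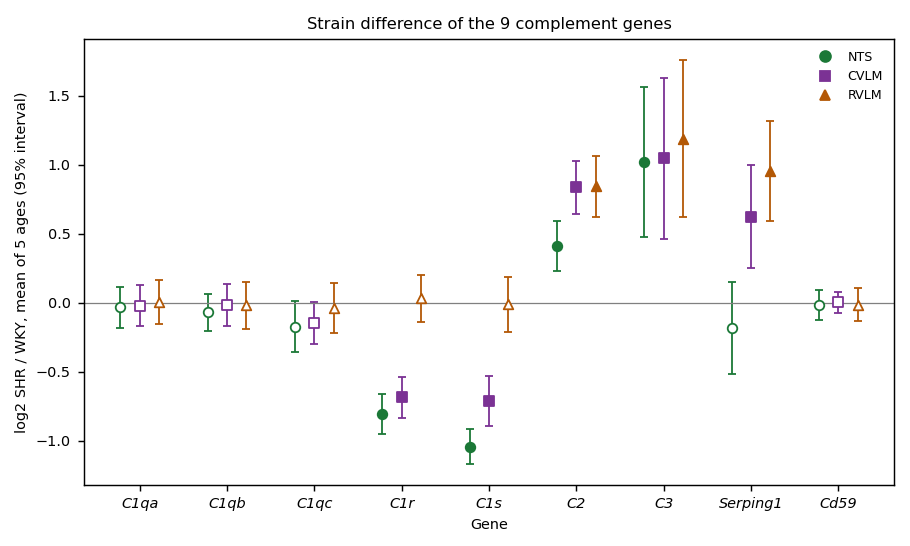
Log2 ratio of SHR to WKY rats, as the mean of 5 ages, for the 9 complement genes (x axis) in the NTS, CVLM and RVLM, with bars for the 95% interval. Filled symbols have an adjusted p below 0.05. C1r and C1s lie below 0 in the NTS and CVLM and at 0 in the RVLM, and C2 and C3 lie above 0 in each region.

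C1s and C1r, the proteases of the C1 complex, were lower in the SHR in the NTS. At 8 wk C1s was at 21.3, 22.4, 31.9, 26.8 and 26.3 CPM in the 5 WKY rats and at 7.20, 8.58, 12.0, 9.80 and 8.29 CPM in the 5 SHR. At 10 wk the WKY rats had 29.7, 27.9, 30.9 and 37.9 CPM and the SHR 13.8, 14.8, 14.5, 15.1 and 15.3 CPM. The lowest WKY rat thus stood well above the highest SHR at both ages. At 12 wk the WKY rats had 22.8, 30.9 and 28.9 CPM, and the 6 SHR ran from 9.99 to 15.3 CPM with a median of 12.2 CPM. At 16 wk the values were 21.1, 23.5 and 20.7 CPM in WKY rats and 11.6 to 16.5 CPM in the SHR, with a median of 14.0 CPM. At 24 wk they were 24.3, 22.2 and 28.9 CPM against 12.7 to 17.7 CPM, with a median of 14.2 CPM. The groups did not overlap at any age, and all 28 SHR lay below all 18 WKY rats. In the NTS, 0.558% of genes were lower in the SHR without overlap at each of the 5 ages, and 0.384% had all SHR below all WKY rats. For groups without overlap at a single age, no share of all genes was counted here or below. Over the ages C1s was 2.06-fold lower in the SHR (log2 -1.04, standard error 0.06, adjusted p = 3.22e-17), and it passed at each of the 5 ages. Without WKY replicate 2 of 16 wk the difference at this age was -0.58 and did not pass (adjusted p = 0.0935). Its log2 difference was -1.49, -1.10, -1.19, -0.64 and -0.78 from 8 to 24 wk, and the change of these with age had an unadjusted p of 0.00108 and an adjusted p of 0.378.

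C1r, which cleaves and activates C1s, lay lower in the SHR in the NTS too. At 8 wk the WKY rats had 14.0, 19.9, 19.3, 16.8 and 19.1 CPM and the SHR 9.95, 7.71, 8.90, 8.82 and 9.93 CPM. At 10 wk the values were 17.9, 26.9, 17.5 and 18.7 CPM against 12.0, 13.4, 11, 9.20 and 10.0 CPM. At 12 wk they were 18.1, 27.0 and 22.5 CPM in WKY rats against 8.91 to 13.5 CPM in the SHR, with a median of 10.1 CPM. Up to this age no SHR reached the lowest WKY rat. At 16 wk WKY rats had 20.0, 20.1 and 14.6 CPM and the SHR 11.2 to 17.3 CPM, with a median of 13.9 CPM, and 4 of 6 SHR were below all WKY rats. At 24 wk the values were 23.4, 22.7 and 24.4 CPM against 11.5 to 19.5 CPM, with a median of 12.9 CPM, without overlap. Over the ages C1r was 1.75-fold lower (log2 -0.80, standard error 0.07, adjusted p = 5.81e-12). It passed at 8, 10, 12 and 24 wk, with log2 differences of -0.98, -0.86, -1.06 and -0.76, and not at 16 wk, where it was -0.36 (adjusted p = 0.652). Without the 5 NTS libraries of high Ttr the mean difference was -0.73 for C1r and -0.98 for C1s, and both passed (adjusted p = 1.83e-08 and 1.63e-13), while C1r at 12 wk, with 1 WKY rat left, did not (log2 -0.73, adjusted p = 0.253).

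In the CVLM both proteases were lower in the SHR as well, from lower levels. C1r at 8 wk was at 10.1, 16.3, 12.4, 14.3 and 12.5 CPM in the 5 WKY rats, and the SHR had 5.80, 8.98, 5.88, 8.28 and 7.02 CPM. At the later ages WKY rats lay between 11.1 and 15.7 CPM and the SHR between 5.33 and 10.5 CPM. The groups did not overlap at any age, which held for 0.612% of genes as lower in the SHR, and 25 of 28 SHR were below every WKY rat of any age. The mean log2 difference was -0.69 (standard error 0.07, 1.61-fold, adjusted p = 5.29e-10), and single ages passed at 8, 10 and 12 wk (-0.86, -0.61 and -0.90), of which 10 wk was lost without SHR replicate 1 or 3 or WKY replicate 3 (adjusted p up to 0.105). C1s at 12 wk was at 13.9, 11 and 11.1 CPM in WKY rats and at 3.88 to 9.35 CPM in the SHR, with a median of 5.76 CPM. The strains did not overlap in C1s at 10, 12 and 16 wk and overlapped at 8 and 24 wk. Its mean log2 difference was -0.71 (standard error 0.09, 1.64-fold, adjusted p = 5.25e-08), and it passed at all ages but 24 wk, where the difference was -0.22 (adjusted p = 0.569). At 8 wk, within the libraries whose name ends in 1, the difference was -0.45 and did not pass (adjusted p = 0.885). The passes of C1s at 10 and 16 wk were lost without any 1 of 3 and 5 libraries of those ages (WKY replicate 2 and SHR replicates 3 and 4 at 10 wk; all WKY rats and SHR replicates 2 and 3 at 16 wk), with adjusted p up to 0.0960 and 0.142.

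In the RVLM the same genes showed no strain difference that passed. C1s at 8 wk was at 14.6, 14.4, 9.79, 21.9 and 23.1 CPM in WKY rats and at 16.0, 13.8, 17.5, 12.5 and 16.2 CPM in the SHR, all of which lay inside the WKY range. Over all ages C1s ran from 9.79 to 23.1 CPM in WKY rats and from 8.43 to 25.9 CPM in the SHR. C1r ran from 13.6 to 22.8 CPM and from 10.9 to 26.4 CPM. The strains thus overlapped for both genes at every age. The mean log2 difference was 0.03 for C1r, with a 95% interval from -0.14 to 0.20 (adjusted p = 0.879), and -0.01 for C1s, with an interval from -0.21 to 0.19 (adjusted p = 0.967).

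The strain difference itself was compared between regions in 1 fit over the libraries of all 3 regions, with the rat as a block. Between the NTS and RVLM 4 members passed, where 1.75% of 13116 genes did. The log2 strain difference was lower in the NTS by a log2 difference of -1.04 for C1s (standard error 0.12, adjusted p = 2.54e-10), -0.83 for C1r (0.10, adjusted p = 1.09e-08), -1.17 for Serping1 (0.23, adjusted p = 7.09e-04) and -0.44 for C2 (0.12, adjusted p = 0.0375). The difference of C2 was lost with limma voom and the rat as a term (adjusted p = 0.0580), with no filter on low counts (adjusted p = 0.0609) and without the rat as a block (adjusted p = 0.0928). Between the CVLM and RVLM 2 members passed, C1r (-0.70, adjusted p = 5.60e-06) and C1s (-0.69, adjusted p = 1.19e-04), where 0.282% of genes did. Between the NTS and CVLM 0 of 9 passed in edgeR, where 0.351% did. At an unadjusted p below 0.05 this test gave 3 members, beside 985 of the 13116 genes. Serping1 (-0.86 in edgeR, adjusted p = 0.0917) passed in limma voom with a correlation within rats, for which the share of all genes is not given here. The lower level of the proteases in the SHR thus differed between the RVLM and each of the other regions.

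**Figure D2:**
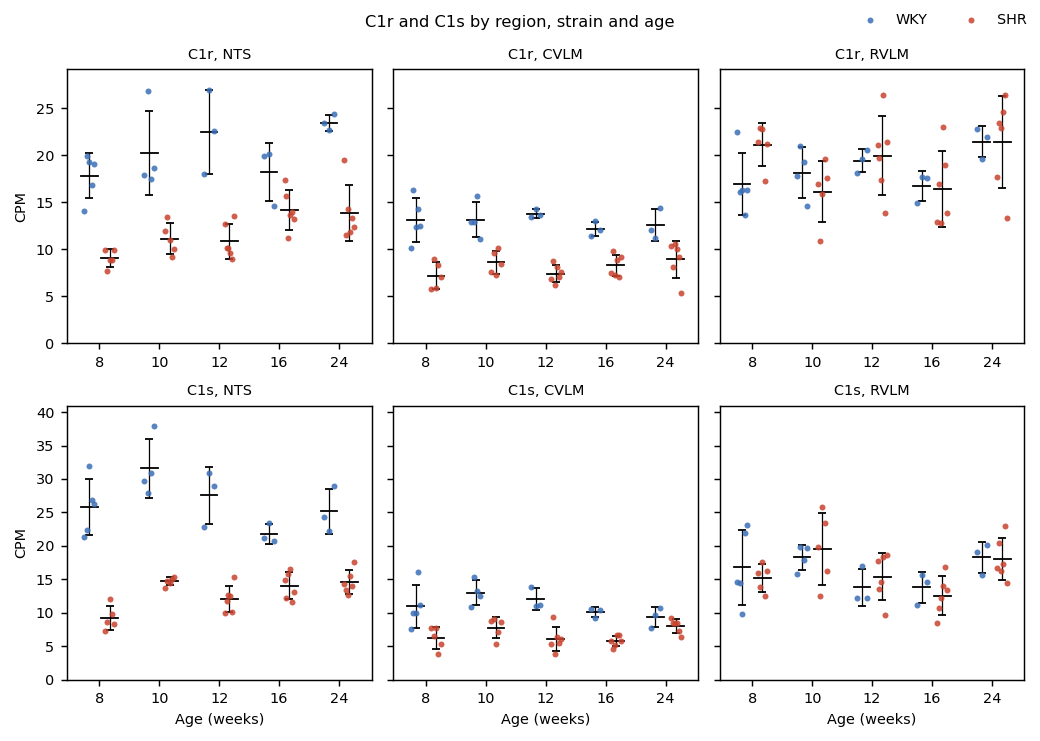
CPM of C1r (top) and C1s (bottom) by age in weeks in the NTS, CVLM and RVLM, with 1 point per rat and a line at each group's mean, with bars for 1 SD, for WKY rats and SHR. In the NTS all SHR points of C1s lie at or below 17.7 CPM and all WKY points at or above 20.7 CPM, and in the RVLM the strains lie among each other.

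Astrocytes are among the cells that can make C1r and C1s, and an astrocyte list of 11 genes was therefore read beside them. Its summed level was lower in the SHR, where the NTS had 7142 to 8942 CPM against 8384 to 10923 CPM in WKY rats, the CVLM 5904 to 7932 against 6754 to 9271 CPM and the RVLM 5666 to 7892 against 7438 to 11354 CPM. Of its genes S100b was lower in the SHR in each region (log2 -0.95, -1.11 and -1.18), 1 passed as higher in the NTS (Fgfr3) and 1 in the RVLM (Aldh1l1), and the others did not pass. No gene of the list was at 0 in any library. The median log2 difference of the 11 genes was 0.01, -0.00 and 0.07 in the NTS, CVLM and RVLM, beside 0.01, -0.00 and 0.01 over all genes. The lower sum thus does not stand for most genes of the list. The part of astrocytes in the difference of C1r and C1s was not tested. Over the 46 rats, C1r and C1s deviated from their group means with Pearson correlations of 0.07, 0.26 and 0.49 in the NTS, CVLM and RVLM (permutation test, adjusted over 60 relations, p = 0.735, 0.232 and 0.00938), with Spearman's rho of 0.06, 0.17 and 0.45. In the RVLM the relation was 0.71 within the SHR and -0.06 within the WKY rats.

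The promoter of C1r is printed because the level of C1r differed between the strains in the NTS and CVLM. The 4 promoters shown here are the 250 bases before the start in RefSeq, in the build GRCr8, printed 5′ to 3′ on the gene's own strand, and 4 of the 9 genes were matched (C1qa, C1qb, C1r and C3). Capitals mark matches of the motifs searched on both strands, which were the PU.1 box GAGGAA, the STAT site TTCNNNGAA, the kappaB site of GGGA and CC with 4 bases between them, the C/EBP site TTGCGNAA, the interferon element of GAAA and GAAA with 2 bases between them, the CCAAT box CCAAT and the TATA box TATAAA.
C1r, chr4:159098763-159099012, plus strand: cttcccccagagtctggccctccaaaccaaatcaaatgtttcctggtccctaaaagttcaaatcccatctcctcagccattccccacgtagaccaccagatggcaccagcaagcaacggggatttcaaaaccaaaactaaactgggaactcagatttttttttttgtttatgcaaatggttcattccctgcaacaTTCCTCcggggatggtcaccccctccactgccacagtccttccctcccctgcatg
The only match in C1r was a PU.1 box on the opposite strand, 55 to 50 bases before the start, and 23.34% of 33469 rat promoters of this length hold that motif. None of the other 6 motifs matched in this window.

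C2, the protein cut by C1s to form part of the C3 convertase, was higher in the SHR. In the CVLM at 8 wk it was at 7.94, 7.27, 5.46, 4.84 and 5.89 CPM in WKY rats and at 15.4, 13.4, 12.0, 17.7 and 14.9 CPM in the SHR. At 10 wk the values were 6.79, 5.90, 4.08 and 6.84 CPM against 12.4, 14.4, 10.5, 14.1 and 9.28 CPM. At 24 wk they were 10.6, 7.95 and 8.81 CPM against 12.4 to 20.3 CPM, with a median of 13.9 CPM. At these ages the groups did not overlap, and 24 of 28 SHR lay above every WKY rat of any age. How many of all genes did so was not counted. The mean log2 difference was 0.84 in the CVLM (standard error 0.09, 1.79-fold, adjusted p = 2.64e-09), and 8, 10 and 24 wk passed (1.23, 1.04 and 0.72), of which 24 wk was lost without any 1 of the 3 WKY rats or of 3 SHR (replicates 1, 2 and 4; adjusted p up to 0.153).

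In the RVLM C2 at 8 wk was at 7.05, 4.62, 6.75, 3.01 and 5.16 CPM in WKY rats and at 8.82, 11.8, 12.2, 11 and 12.6 CPM in the SHR. At 16 wk it was at 4.61, 6.87 and 7.39 CPM against 8.14 to 18.1 CPM, with a median of 13.9 CPM. The strains did not overlap at 8, 12 and 16 wk, and 19 of 28 SHR exceeded every WKY rat. The mean log2 difference was 0.84 (standard error 0.11, 1.79-fold, adjusted p = 9.18e-08), with 8 and 16 wk passing (1.1 and 1.07), the latter lost without WKY replicate 1 or 2 (adjusted p up to 0.217). Within the libraries whose name ends in 1, all members together had 1 pass at a single age in the RVLM. C2 at 8 and 16 wk thus did not both pass there. In the NTS C2 was higher by a log2 of 0.41 (standard error 0.09, 1.33-fold, adjusted p = 9.43e-04), from a WKY median of 15.2 CPM to an SHR median of 19.3 CPM, and no single age passed. There 14 of 28 SHR lay above all WKY rats.

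C2 lies next to Cfb, which encodes factor B, its counterpart in the alternative pathway, and its counts were shared out by the estimation. The count of C2 was not a whole number in 27, 26 and 27 of 28 SHR libraries in the NTS, CVLM and RVLM but in 4, 4 and 7 of 18 WKY libraries, whereas the counts of the 8 other members were whole in every library. The tables hold 2 entries for Cfb. The entry ENSRNOG00000000419 was at 1.40, 1.43 and 1.75 CPM at most in WKY rats in the NTS, CVLM and RVLM and reached 23.2, 14.7 and 25.5 CPM in the SHR. With C2 and both Cfb entries summed, WKY medians were 29.8, 21.2 and 21.4 CPM and SHR medians 38.4, 32.3 and 34.7 CPM, and the log2 difference was 0.45, 0.50 and 0.56 (adjusted p = 1.40e-06, 4.30e-08 and 7.75e-07). The sum was therefore higher in the SHR in each region, with smaller differences than C2 alone in the CVLM and RVLM, and how reads were split between the genes limits what C2 alone can show.

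**Figure D3:**
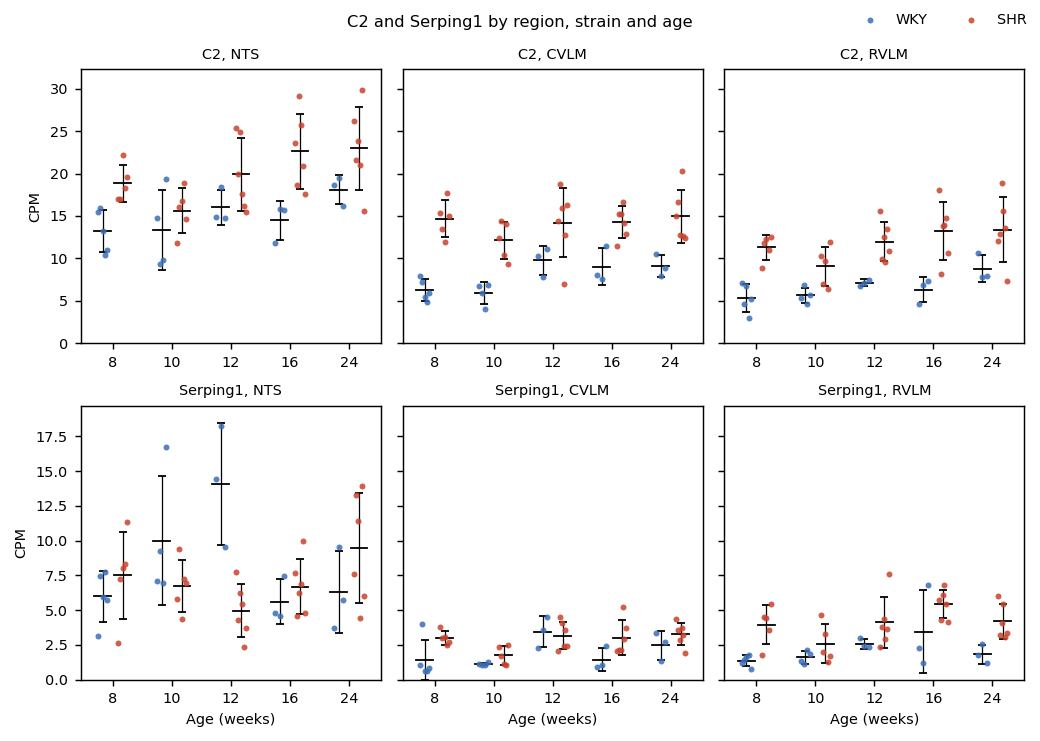
CPM of C2 (top) and Serping1 (bottom) by age in weeks in the NTS, CVLM and RVLM, with 1 point per rat and a line at each group's mean with bars for 1 SD. C2 in the CVLM shows 24 of 28 SHR above every WKY rat, and Serping1 in the NTS at 12 wk shows the WKY rats at 9.53 to 18.2 CPM above the SHR at 2.37 to 7.77 CPM.

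C3, the central component on which all complement pathways meet, was raised in some SHR of 16 and 24 wk. At 16 wk in the NTS it was at 6.13, 7.45 and 12.6 CPM in the WKY rats, and the 6 SHR had 68.6, 8.36, 13.2, 128, 41.6 and 8.90 CPM in the order of replicates 1 to 6. At 24 wk the WKY rats had 11.1, 12.6 and 11.6 CPM and the SHR 11.9, 89.7, 45.6, 11.2, 37.9 and 12.3 CPM. At each of these ages 3 SHR stood far above the WKY rats, and the other 3 lay close to them. In the CVLM the SHR had 36.9, 5.76, 5.82, 75.7, 12.0 and 4.48 CPM at 16 wk and 7.58, 34.6, 13, 13.5, 11.6 and 8.26 CPM at 24 wk. In the RVLM they had 54.7, 4.42, 6.73, 69.4, 8.54 and 8.60 CPM at 16 wk and 6.48, 41.4, 16.0, 13.2, 12.8 and 8.22 CPM at 24 wk. The high rats were largely but not wholly shared: replicate 5 of 16 wk was at 41.6 CPM in the NTS and within the WKY range in the RVLM, and replicate 4 of 24 wk lay above every WKY rat in the CVLM and RVLM but not in the NTS. Of 28 SHR, 5 exceeded every WKY rat in all 3 regions, all of them of 16 or 24 wk (at 16 wk replicates 1 and 4, at 24 wk replicates 2, 3 and 5), and 18 did so in no region. The highest WKY values were 12.6, 8.63 and 9.20 CPM in the NTS, CVLM and RVLM.

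The mean log2 difference of C3 was 1.02 in the NTS (standard error 0.27, adjusted p = 0.00690), 1.045 in the CVLM (0.29, adjusted p = 0.0102) and 1.19 in the RVLM (0.28, adjusted p = 0.00248). The mean of the SHR was above that of the WKY rats at all 5 ages in each region, but only 16 wk passed, in the NTS (2.36, adjusted p = 0.0483) and RVLM (2.49, adjusted p = 0.0433). In the test of whether the strain difference changed with age, C3 did not pass in any region, nor did its unadjusted p fall below 0.05. Both passes lay close to the threshold: the NTS lost it without any 1 of 37 of the 46 rats, of which WKY replicate 1 gave the highest adjusted p (0.337), and the RVLM without any 1 of 19, of which WKY replicate 2 did (0.341). Without SHR replicate 4 of 16 wk the difference was 1.695 in the NTS and 1.86 in the RVLM, and neither passed (adjusted p = 0.231 and 0.205). Within the 32 libraries per region whose name ends in 1, the differences of C3 were 1.13, 0.88 and 1.26 and did not pass (adjusted p = 0.0636, 0.203 and 0.0510). C3 deviated alike in the regions of a rat, and the values are given by strain because the high rats are SHR. Within the 28 SHR the Pearson correlation of deviations from the group means was 0.87 between the NTS and CVLM, 0.82 between the NTS and RVLM and 0.82 between the CVLM and RVLM. Within the 18 WKY rats it was 0.35, 0.49 and 0.43. Over all 46 rats it was 0.77, 0.78 and 0.74 with Spearman's rho of 0.62, 0.55 and 0.58 (permutation test, Pearson adjusted p = 2.14e-04, 1.38e-04 and 0.00148), and 0.65, 0.67 and 0.61 without the 2 rats farthest out. Among the 9 genes, C3 was the only one for which all 3 pairs of regions passed by both measures, with C1qc passing between the NTS and CVLM. The microglia list went with C3 at correlations of 0.24 to 0.27, which did not pass in any region.

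**Figure D4:**
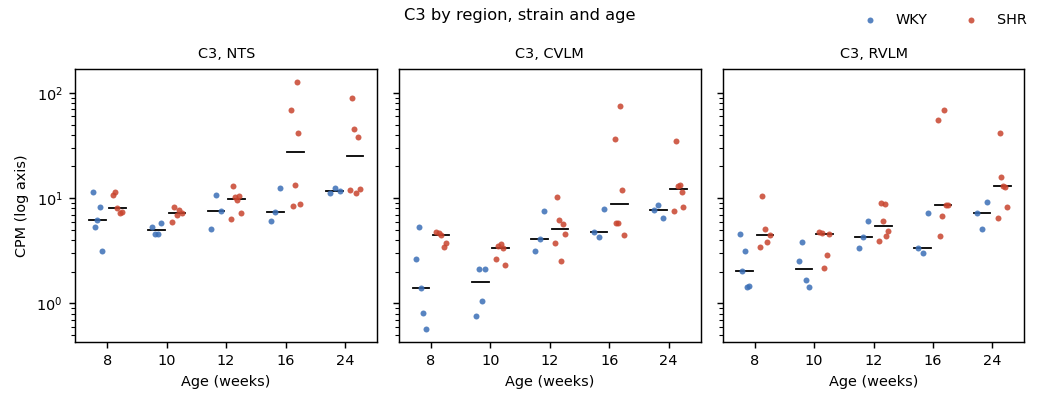
CPM of C3 on a log axis by age in weeks in the NTS, CVLM and RVLM, with 1 point per rat and a line at each group's median. The highest points are SHR of 16 and 24 wk, up to 128 CPM in the NTS, and other SHR of the same ages lie near the WKY rats.

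The promoter of C3 is printed as that of the member with the widest spread between rats, and the 2 motifs found in it are ones through which inflammatory factors are known to act.
C3, chr9:2201340-2201589, minus strand: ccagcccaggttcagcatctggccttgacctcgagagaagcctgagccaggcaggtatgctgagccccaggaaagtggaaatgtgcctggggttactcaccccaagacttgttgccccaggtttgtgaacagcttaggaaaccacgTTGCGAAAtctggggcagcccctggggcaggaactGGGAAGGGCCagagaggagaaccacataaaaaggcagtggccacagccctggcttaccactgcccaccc
It held a C/EBP site 104 to 97 bases before the start, a motif in 0.73% of rat promoters, and a kappaB site 69 to 60 bases before it, a motif in 16.43%. These are matches of letters, and whether a factor bound there was not measured.

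C1qa, C1qb and C1qc encode the 3 chains of C1q, and none of them passed for the strain in any region. C1qb in the NTS had a median of 70.8 CPM in WKY rats (49.996 to 85.9 CPM) and of 65.5 CPM in the SHR (46.6 to 92.5 CPM). In the CVLM the medians were 40.2 and 41.9 CPM, and in the RVLM 44.2 and 47.4 CPM. Over all ages the strains overlapped widely. At single ages C1qb did not overlap in the NTS at 10 wk, where WKY rats had 58.5 to 70.9 CPM and the SHR 46.6 to 56.8 CPM (log2 -0.28, adjusted p = 0.313). In the RVLM at 24 wk C1qb had 52.7 to 58.3 against 36.2 to 52.5 CPM (adjusted p = 0.392) and C1qc 35.0 to 41.7 against 21.7 to 30.1 CPM (log2 -0.51, adjusted p = 0.227), also without overlap. The SHR were the lower strain in each of these, and none passed. The 95% interval of the mean log2 difference of C1qb ran in the NTS, CVLM and RVLM from -0.20 to 0.07, from -0.17 to 0.14 and from -0.19 to 0.15. For C1qa it was -0.18 to 0.12, -0.17 to 0.13 and -0.15 to 0.16, and for C1qc -0.36 to 0.01, -0.30 to 0.01 and -0.22 to 0.14. Lower C1qc by up to 0.36 in the NTS therefore lay within its interval.

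The 3 chains varied together. Over the 46 rats, their deviations from the group means in a region correlated at 0.77 to 0.91 in all 9 pairs of chains and regions, each passing by both measures (permutation test, adjusted over 60 relations). C1qb also went with the summed level of 13 microglia markers, at 0.72, 0.71 and 0.49 in the NTS, CVLM and RVLM, and at 0.79, 0.78 and 0.70 within the libraries whose name ends in 1. The correlation was 0.77, 0.67 and 0.68 within the SHR and 0.59, 0.76 and 0.16 within the WKY rats. The ranges of that sum overlapped widely between the strains, where the NTS had 421 to 561 CPM in WKY rats and 396 to 618 CPM in the SHR, the CVLM 290 to 485 and 287 to 458 CPM and the RVLM 289 to 432 and 269 to 442 CPM. Within the list 3, 3 and 4 genes passed for the strain in the NTS, CVLM and RVLM (11.2%, 12.3% and 10.8% of all genes did), in both directions: Tmem119 and Ctss were lower in all regions and Aif1 in the CVLM, and Trem2 was higher in the NTS and RVLM and Cd68 in the RVLM.

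**Figure D5:**
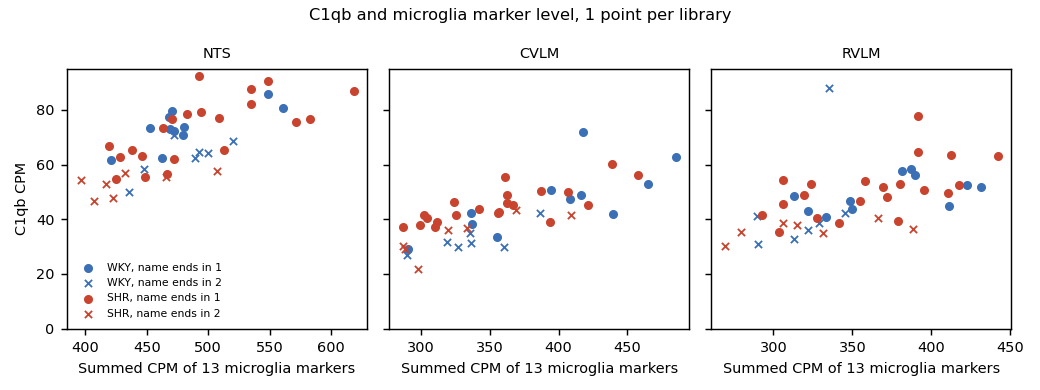
CPM of C1qb against the summed CPM of 13 microglia markers, with 1 point per library, for the NTS, CVLM and RVLM. Colours give the strain and symbols the number in which a library's name ends. C1qb went with the marker sum in both strains in the NTS and CVLM. In the RVLM the correlation of deviations from group means was 0.68 within the SHR and 0.16 within the WKY rats.

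The promoters of C1qa and C1qb are shown as those of a pair of chains that varied together.
C1qa, chr5:154419934-154420183, minus strand: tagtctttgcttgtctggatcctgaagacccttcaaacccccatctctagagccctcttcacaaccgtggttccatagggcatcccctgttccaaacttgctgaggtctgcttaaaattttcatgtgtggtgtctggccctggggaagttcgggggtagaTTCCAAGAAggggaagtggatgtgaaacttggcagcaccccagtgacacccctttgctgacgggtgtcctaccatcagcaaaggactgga
C1qb, chr5:154407828-154408077, minus strand: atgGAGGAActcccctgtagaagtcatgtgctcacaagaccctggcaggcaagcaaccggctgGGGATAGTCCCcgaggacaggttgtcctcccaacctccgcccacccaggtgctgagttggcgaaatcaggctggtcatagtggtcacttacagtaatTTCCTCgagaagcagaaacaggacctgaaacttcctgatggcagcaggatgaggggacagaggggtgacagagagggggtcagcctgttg
The C1qa window held a STAT site 90 to 82 bases before the start, a pattern that matches on both strands at once and is in 7.67% of rat promoters. The C1qb window held PU.1 boxes on each strand, at 247 to 242 and 90 to 85 bases before the start, and kappaB sites on both strands that overlap, at 187 to 178 and 186 to 177. PU.1 is known as a factor of microglia and macrophages, and the searched box was in C1qb and not in the C1qa window, so no motif of the search was shared by these windows.

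Serping1, the inhibitor of C1r and C1s, was higher in the SHR in the CVLM and RVLM, while in the NTS it passed, as lower in the SHR, at 12 wk alone. In the RVLM at 8 wk it was at 1.18, 1.44, 1.59, 1.78 and 0.789 CPM in WKY rats and at 1.76, 4.50, 4.46, 3.54 and 5.45 CPM in the SHR, where 4 of 5 SHR lay above all WKY rats. At 24 wk the WKY rats had 1.74, 2.56 and 1.2 CPM and the SHR 3.03 to 6.04 CPM, with a median of 3.73 CPM, without overlap. Averaged over the ages Serping1 was 1.93-fold higher in the SHR (log2 0.95, standard error 0.18, adjusted p = 1.12e-04), and of single ages 8 wk passed (1.55, adjusted p = 0.00661). In the CVLM it was higher by a log2 of 0.62 (standard error 0.18, adjusted p = 0.0160), with medians of 1.17 and 2.81 CPM, and no single age passed. Within the libraries whose name ends in 1 this was 0.47 and did not pass (adjusted p = 0.194), whereas the mean over ages in the RVLM passed. Of all members, 1 pass at a single age was left in the RVLM in these libraries. Serping1 and C2 at 8 wk thus did not both pass there.

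In the NTS the mean over ages did not pass (log2 -0.18, 95% interval -0.51 to 0.15, adjusted p = 0.62), and 12 wk alone did. At this age Serping1 was at 14.4, 18.2 and 9.53 CPM in WKY rats and at 2.37 to 7.77 CPM in the SHR, with a median of 4.85 CPM, so that the strains did not overlap (log2 -1.51, standard error 0.36, adjusted p = 0.00897). Without WKY replicate 2 alone the difference at 12 wk was -1.26 and did not pass (adjusted p = 0.152). At 10 wk the medians were 8.15 CPM in WKY rats and 6.96 CPM in the SHR (log2 -0.57, adjusted p = 0.402), with overlap. At 16 wk the WKY rats had 4.78, 4.56 and 7.44 CPM and at 24 wk 3.70, 9.51 and 5.70 CPM, which the SHR of these ages overlapped. Of the WKY libraries of 12 wk, 2 had high Ttr, and without the 5 such libraries the difference at 12 wk was -1.54 with 1 WKY rat left and did not pass (adjusted p = 0.231). The summed level of 9 leptomeninges and fibroblast markers was 86.6 to 155 CPM in the WKY rats and 47.2 to 92.4 CPM in the SHR of 12 wk. Over all rats Serping1 deviated with this sum at 0.72, 0.01 and 0.51 in the NTS, CVLM and RVLM, and in the NTS at 0.69 within WKY rats and 0.79 within the SHR. Over the 5 ages, none of the 8 tested genes of the list passed for the strain in the NTS or CVLM. By this mean over ages, which is not the comparison at 12 wk, Slc6a13 was higher in the RVLM, and Serping1 did not pass in the NTS either. Of the genes of the list, Col1a2 was at 0 in 40 of 46 NTS libraries. The 8 tested genes were above 0 in every NTS library, with medians from 1.23 CPM (Col1a1) to 21.4 CPM (Aldh1a2). The part of these cells in the result was not tested.

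Cd59, the inhibitor of the membrane attack complex, passed for the strain in no region and at no age. WKY rats had 335 to 503 CPM in the NTS, and the SHR had 319 to 538 CPM. The CVLM held 458 to 661 and 449 to 592 CPM and the RVLM 530 to 915 and 507 to 908 CPM, so that the strains overlapped throughout. The 95% interval of its mean log2 difference was the narrowest of the 9 genes, at -0.12 to 0.09, -0.07 to 0.08 and -0.14 to 0.11.

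Levels of the 9 genes were also compared between regions, within rats. All 9 differed between the NTS and CVLM, where 65.4% of genes did, and 8 were higher in the NTS, as were 33.7% of genes. Serping1 was 3.02-fold higher in the NTS than in the CVLM (log2 1.59, standard error 0.12) and 2.34-fold higher than in the RVLM (1.23, 0.12). C1s was 1.95-fold higher in the NTS than in the CVLM, and C3 1.93-fold. Cd59 was the exception, since it was lowest in the NTS and highest in the RVLM (NTS to CVLM -0.47, NTS to RVLM -0.92, CVLM to RVLM -0.45). Between the NTS and RVLM 8 of 9 passed, where 72.3% of genes did, with C1r lower in the NTS (-0.43) and C1s not told apart (0.04, 95% interval -0.08 to 0.15, adjusted p = 0.570). Between the CVLM and RVLM 8 of 9 passed, where 53.8% did, and C2 alone was higher in the CVLM (0.24), while C3 was not told apart (-0.17, adjusted p = 0.128). In limma voom, C1qc (-0.14, adjusted p = 0.0123 in edgeR) was lost without WKY replicate 2 of 12 wk (adjusted p = 0.0703). These are means of the strains, and for C1r, C1s and Serping1 the strain difference itself differed between regions. The shares passed over all genes are high, so that passing is no mark of these 9 genes.

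Age was tested within each strain over the 5 ages. In the SHR 5 members passed in the NTS (C1r, C1s, C1qb, C1qc and C3), where 18.7% of genes did, 4 in the CVLM (C1qa, C1qb, C1qc and C3), where 20.0% did, and 3 in the RVLM (C1qb, C1qc and C3), where 14.1% did. In the WKY rats Serping1 passed in the NTS (12.5% of genes), Serping1, C1qb, C1qc, C2 and C3 in the CVLM (22.2%) and C1qc in the RVLM (6.79%). With the number in a library's name as a term, 2, 1 and 0 members passed in the SHR in the NTS, CVLM and RVLM, and 0 passed in WKY rats in any region. The shares of all genes that passed with this term are not given here. C1s in the NTS of the SHR had a median of 8.58 CPM at 8 wk and of 14.8, 12.2, 14.0 and 14.2 CPM at the later ages. C1qc in the RVLM of the SHR had 20.9, 18.8, 23.5, 14.7 and 22.3 CPM at 10 wk and 31.7, 37.4, 30.3, 27.6 and 30.8 CPM at 8 wk, without overlap. The group median of C1qc was lowest at 10 wk in both strains in each region, and all libraries of 10 wk have names that end in 2. The part of this number in the level at 10 wk was tested only through the term above.

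Of 45 other complement genes, chosen from general knowledge, 29, 25 and 27 were tested in the NTS, CVLM and RVLM. In the NTS 4 were higher and 3 lower in the SHR, in the CVLM 3 and 3, and in the RVLM 4 and 4, beside the 11.2%, 12.3% and 10.8% of all genes that passed, with a median log2 difference of 0.06, 0.04 and 0.10. The activators Cfb, in its entry ENSRNOG00000000419, and Cfp, which encodes properdin and holds the alternative convertase together, were higher in all regions. The other entry of Cfb, ENSRNOG00000051158, passed in no region (log2 -0.07, -0.18 and -0.58 in the NTS, CVLM and RVLM). A single entry therefore does not give the level of Cfb as a whole. Cfp was higher by a log2 of 0.61, 0.45 and 0.34 in the NTS, CVLM and RVLM. Cfd, which encodes factor D, the protease that cuts factor B, was higher in the RVLM (0.50, adjusted p = 0.0351). C4a and C4b, copies of the component that C1s cleaves, were lower in all regions (C4a at log2 -1.55, -0.92 and -0.71), and their counts were not whole in nearly all libraries, so that the copies cannot be kept apart. Of receptors, Itgb2, the shared chain of the C3 fragment receptors, was lower in all regions (-0.41, -0.59 and -0.32), and Cd93, a C1q receptor-like protein of endothelium and myeloid cells, was higher in the NTS (0.48, adjusted p = 0.0266). Of inhibitors, Vtn, which encodes vitronectin, was higher in all (0.22, 0.22 and 0.24), and Clu, clusterin, was lower in the RVLM (-0.26).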

How the data were processed

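RNA-seq libraries of the NTS, CVLM and RVLM were analysed, 46 per region. Per the methods of the study, the authors mapped reads to rn6 with STAR inside RSEM, and the deposited values are RSEM expected counts per gene, estimated and not normalized, of which 5.02%, 4.95% and 4.88% are not whole in the NTS, CVLM and RVLM. The methods also name a batch adjustment with ComBat_seq, and whether the deposited tables hold it is not given in the sources used here.

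Expected counts were rounded, and genes were kept in a region when the largest rlog value reached 3.5, which kept all 9 members. Analyses used R 4.3.3 with edgeR 4.0.16, limma 3.58.1 and DESeq2 1.42.0, and Python 3.11.15 with scipy 1.17.1. For each region 1 edgeR quasi-likelihood model took strain by age as its 10 groups after TMM normalization, with Benjamini-Hochberg adjustment over all genes of a comparison. Regions were compared in 1 model with the rat as a term, a rat being the libraries of equal strain, age and replicate number. The median correlation of deviations between regions was 0.23, 0.18 and 0.08 for libraries of 1 rat and -0.01, -0.00 and 0.00 for those of different rats. Correlations over rats used deviations of log2(CPM + 0.5) from group means, with two-sided permutation tests of 100000 resamples and 60 relations adjusted together.

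The members and lists were chosen with earlier results of these data known. All members are named, with the other complement genes that passed and the 3 genes most like each member, and genes of marker lists were named after their values were seen. Replicates are rats. In a simulation on the NTS with 13793 genes, the mean strain difference was found for 71 of 100 genes changed by 0.5 on the log2 scale and 47 of 50 changed by 1, and the difference at 8 wk for 17 and 31. No change with age was simulated. In 2 CVLM libraries of 8 wk the title and the age label conflict, and the title was followed. Alternatives covered the normalization, the filter, DESeq2, limma voom, the replicate number and the library number as terms, and each rat left out.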

Additional observations from a re-analysis of the deposited data

Results flagged for a closer look

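In 13 of 189 groups of 4 to 6 rats, Dixon's gap test at the 95% level set 1 rat apart from its group, where chance sets apart about 1 in 20 groups. In the NTS these were C1r in WKY replicate 2 of 10 wk (26.9 CPM, where the others had 17.5 to 18.7 CPM), C1r in SHR replicate 1 of 24 wk (19.5 CPM against 11.5 to 14.3 CPM) and Cd59 in SHR replicate 1 of 10 wk (538 CPM against 319 to 370.5 CPM). In the CVLM, WKY replicate 2 of 8 wk was high for 3 genes, at 3.99 CPM of Serping1 (others 0.591 to 1.079 CPM), 31.4 CPM of C1qc (18.1 to 21.5 CPM) and 55.3 CPM of C1qa (28.8 to 33.7 CPM). C1qa was high in CVLM SHR replicate 3 of 8 wk (44.2 CPM against 34.8 to 36.7 CPM), and C1qc was low in CVLM SHR replicate 2 of 16 wk (24.8 CPM against 29.0 to 31.1 CPM). SHR replicate 2 of 24 wk was high for C3 in the CVLM (34.6 CPM against 7.58 to 13.5 CPM) and the RVLM (41.4 CPM against 6.48 to 16.0 CPM), as was SHR replicate 2 of 8 wk in the RVLM (10.4 CPM against 3.43 to 5.08 CPM). In the RVLM, C1qb was high in WKY replicate 3 of 8 wk (87.8 CPM against 38.5 to 48.5 CPM), and C1qa was low in SHR replicate 2 of 16 wk (40.3 CPM against 56.4 to 65.5 CPM).

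The strain difference itself differed between regions for 4 members, by the test over the libraries of all 3 regions in edgeR (n = 46 rats). The log2 strain difference in the NTS minus that in the RVLM was -1.17 for Serping1, -0.83 for C1r, -1.04 for C1s and -0.44 for C2. The call of C2 (adjusted p = 0.0375) was lost with limma voom and the rat as a term (adjusted p = 0.0580), with no filter (adjusted p = 0.0609) and without the rat as a block (adjusted p = 0.0928). With C2 and Cfb summed the strain difference was 0.45 in the NTS and 0.56 in the RVLM, and the difference of these was not tested. In the CVLM minus the RVLM it was -0.70 for C1r and -0.69 for C1s.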

How the results depend on the processing

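No difference that passed changed direction under any alternative. Over the 5 ages, 4, 5 and 3 members passed in the NTS, CVLM and RVLM under each alternative run with edgeR or DESeq2 and with any 1 rat left out, except within the libraries whose name ends in 1. Those gave 3, 3 and 2 members, and at single ages 9, 5 and 1 passes in place of 11, 10 and 4. These libraries hold no rat of 10 wk. At that age 2, 3 and 0 of the passes in all libraries lay in the NTS, CVLM and RVLM. In the RVLM the lost passes thus lay at other ages, and in the CVLM some did. The cause was not tested. With each age fitted alone, 8, 7 and 2 passes were left.

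Counts for age were the least stable. Within WKY rats, 1, 5 and 1 members passed in the NTS, CVLM and RVLM. These became 0, 0 and 0 with the library number as a term and 0, 3 and 0 without a filter. In the NTS the count was 0 without the 5 libraries of high Ttr. Within the SHR, 5, 4 and 3 became 2, 1 and 0 with the library number as a term.

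With 1 rat left out, the count within WKY rats ran in the NTS, CVLM and RVLM from 0 to 2, 2 to 6 and 0 to 2. Within the SHR it ran from 3 to 6, 2 to 5 and 2 to 5. Passes at single ages ran from 9 to 12, 8 to 11 and 2 to 4, with the 2 in the RVLM reached without WKY replicate 1 or 2 of 16 wk. For the strain difference between the NTS and CVLM the count ran from 0 to 1 in limma voom with the rat as a term, used for these repeats only, and limma voom with a correlation within rats gave 1 in place of 0. Leaving out rats from the edgeR fit of all regions was not run.

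Same replicate numbers were not taken to pair rats across strains, since the correlation of deviations was not above 0.1 in every pair: over 54 pairs of rats it ran from -0.33 to 0.55 with a median of 0.15, and 32 were above 0.1, among them every pair in the NTS at 12 and 24 wk and in the CVLM at 10 and 12 wk. With the replicate block, 4, 5 and 3 members passed over the ages, 11, 8 and 3 at single ages, and 0 by age within WKY rats in the RVLM. The calls lost were C1s at 16 wk and C2 at 24 wk in the CVLM (both adjusted p = 0.0558) and C3 at 16 wk in the RVLM (adjusted p = 0.0508). Without the rat as a block, as many members passed in each test between regions except that C2 was lost between the NTS and RVLM (adjusted p = 0.0928).

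The restriction to names ending in 1, the sum of C2 with Cfb, the removal of libraries of high Ttr and limma voom with the rat as a term were chosen after seeing the data. The lowest members, such as Serping1 near 1 CPM in the CVLM of WKY rats, rest on few reads, which limits their precision.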

Other observations

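The genes whose levels went most closely with each member were sought over the libraries of all 3 regions, among 13107 other genes, by the Pearson correlation of log2 CPM. These are descriptions without a test, since the libraries share rats, regions and depth. C1qa and C1qb had the same 3 genes, Ech1, Cd63 and Cyba, at 0.90 for C1qa and at 0.91, 0.93 and 0.92 for C1qb. Cyba encodes a subunit of the phagocyte NADPH oxidase and Cd63 a lysosome and exosome membrane protein. C1qc went with S100a13, Sparc and Fam173a at 0.88. C1r went with Chat, the enzyme that makes acetylcholine, Prkcd and Msn at 0.75, and C1s with Rnd3 (0.82), Msn (0.79) and Pter (0.76). C2 was most like Cbs (0.86), Pld4 and Acsf2 (0.83). C3 was most like Pld4 (0.77), Laptm5 (0.75) and Itgam (0.73), of which Itgam encodes a chain of complement receptor 3, found on microglia. Serping1 went with Prelp (0.83), Cybrd1 (0.80) and Mxra8 (0.79), and Cd59 with Anxa6 and Anxa4 (0.92) and P2rx6 (0.91).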
